A study of Mus musculus with 22 samples.

Results

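The 71 gene IDs (70 symbols) described here are the translation initiation, elongation and termination factors of cultured mouse neural stem cells (NSCs), chosen by name from the 23081 genes of the Ribo-Seq tables. A gene was taken if its symbol began with Eif1 to Eif6, Eef1 or Eef2, or if it was Etf1, Gspt1, Pabpc1 or Pabpc4. The rule used no measured value. Of these IDs, 67 were also in the RNA-Seq tables, and Eef1d, Eif2ak4, Eif3h and Eif4ebp3 were measured by footprints alone. The rule by symbol also took in genes that are not factors in the strict sense: Eif2c1 to Eif2c4 are older symbols of the Argonautes, which carry microRNAs, and Eef1e1 is a scaffold protein of the tRNA synthetase complex. Eif4e1b, an eIF4E form known from oocytes, had 0 reads in every library of both assays. Eef2k had 2 gene IDs.

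Initiation factors bring the small ribosomal subunit and the initiator tRNA to the capped mRNA and find the start codon. Elongation factors then deliver aminoacyl tRNAs and move the ribosome, and release factors end the chain at the stop codon. Many mRNAs of this machinery, like those of the ribosomal proteins, begin with a run of pyrimidines at the cap, the 5′ terminal oligopyrimidine (TOP) tract, through which growth signals by way of mTOR control how many ribosomes load onto them. The list of TOP factors used here held Eef1a1, Eef1b2, Eef1d, Eef1g, Eef2, Eif3e, Eif3f, Eif3h, Eif4b and Pabpc1. They were named from general knowledge of these mRNAs, but with earlier results of these data known.

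The study asked what the Musashi RNA-binding proteins Msi1 and Msi2 do to mRNA level and translation in NSCs grown from embryonic mouse cortex of 129SvJae background, in N2 medium with growth factors and laminin. KH2 cells carried the R26-m2rTTA transactivator with no Msi transgene, while tetO-Msi1 and tetO-Msi2 cells carried in addition a doxycycline (Dox) inducible Msi cDNA at the Col1A1 locus. These tet lines were grown with or without Dox at 1 µg/ml for 72 h, and KH2 and tetO-Msi1 cultures came from both E12.5 and E13.5 embryos. C1 cells had floxed Msi1 and Msi2 alleles and no Cre, C4 cells had the same alleles with a tamoxifen-inducible Cre, and both were grown with or without 4-hydroxytamoxifen (4-OHT) for 48 h, from E12.5 embryos. Each condition of a line was 1 culture and 1 library, so the lines or stages were the only repeats. The p-values draw on the spread between these cultures, which may be in part technical, and on a spread pooled over genes. For mRNA with Dox in tetO-Msi1 cells of both stages, and for footprints with Dox, the pooled spread alone was used. A gene whose cultures differed can then still have a small standard error. RNA-Seq covered 14 libraries, of which 2 were technical replicates (E13.5, tetO-Msi1 without Dox) and were combined, and 8 Ribo-Seq libraries covered the E12.5 cultures of C1, C4, tetO-Msi1 and KH2.

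RNA-Seq libraries held 7889966 to 58435172 counted reads and Ribo-Seq libraries 657288 to 6381242. The Ribo-Seq libraries of the tet lines stood apart: their 10 most counted genes took 12.4% to 77.6% of the footprints, against 5.97% to 7.45% in the floxed lines. The RNA-Seq libraries also differed by set, since the counted genes held 14.9% to 15.8% of the reads behind the deposited RPKM in the tet lines of E12.5, 28.2% to 31.96% at E13.5 and 32.1% to 34.1% in the floxed lines. Msi1 mRNA rose from 128 to 698 RPKM (reads per kilobase and library size, rescaled between libraries by TMM) with Dox in E12.5 tetO-Msi1 cells, and from 183 to 696 at E13.5. Msi2 rose from 153 to 830 in tetO-Msi2 cells with Dox. In C4 cells 4-OHT took Msi2 from 123 to 13.6, while Msi1 was 29.5 before and 28.2 after. Of 8 neural stem cell markers, 7 were in the RNA-Seq tables, all above 1 RPKM, and their summed level was 11920 to 17140. Microglial markers summed to at most 0.352 with Cx3cr1 at 0 everywhere, endothelial ones to at most 1.06 and fibroblast ones to at most 2.8. Other lists were higher: oligodendrocyte markers summed to 10.96 to 56.18, neuron markers to 35.0 to 76.9 and astrocyte markers to 1548 to 2339.

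At the mRNA level the factors took a like share of each library, 2.27% to 2.65% of the counted reads. In bulk cultures like these, fewer cells of a type and less RNA per cell cannot be told apart. Of the footprints they took 1.88% to 2.36% in the floxed lines and 0.146% to 0.607% in the tet lines. The lowest footprint share was that of untreated KH2 cells, the library in which the 10 most counted genes took the most. Of the members, 61 had more than 5 reads in every RNA-Seq library, 48 in every Ribo-Seq library and 44 in all of both. The most abundant mRNAs by mean RPKM were Eef2, the translocase (3104), Eef1a1, which delivers aminoacyl tRNA (3001), and Eif4g2, an eIF4G relative without the cap-binding partner site (1567).

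Start sites of a few members are shown because all TOP factors tested differed in translation between the lines described below. Each sequence is 5′ to 3′ on the gene's strand, from 5 bases before the annotated RefSeq start to base 25 of the transcript (build GRCm38.p6), and capitals mark a run of at least 8 bases that are all C or T. The members Eef1a1, Eef2 and Eif3f are TOP factors, Eif3k and Eif3l are eIF3 subunits outside the TOP list, and Eif3b and Eif4g1 are examples without such a run.
Eef1a1, chr9:78481700-78481729, minus strand: CCCTCTTCCCgagggtgggggagaacggta
Eef2, chr10:81176626-81176655, plus strand: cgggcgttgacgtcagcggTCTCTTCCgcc
Eif3f, chr7:108934410-108934439, plus strand: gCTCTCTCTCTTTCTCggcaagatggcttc
Eif3k, chr7:28981864-28981893, minus strand: gcgctggtgctgaaagcgCCTTTCCCTTTg
Eif3l, chr15:79075218-79075247, plus strand: CTTCTTCCgCTCTCTCCCacgggcttctgg
Eif3b, chr5:140419300-140419329, plus strand: gcggtgacttctgggagtcggaagcagggc
Eif4g1, chr16:20672722-20672751, plus strand: gctccgccctctgcgccggtcacgtggggc
In Eef1a1, Eif3f and Eif3l a run lay across the annotated start, and in Eef2 and Eif3k it lay some bases inside the transcript. Over a wider window, 50 bases to each side of the start on the transcribed strand, 22 of the 50 members with an entry held such a run (44%), against 39.3% of all 27018 genes. The share was 82.8% for ribosomal protein genes (53 of 64) and 3 of 5 for TOP factors, with Eef1b2 and Eif4b having no run. Of the members whose TE was higher in the floxed lines 7 of 14 held a run (50%), and of the other members tested for TE 13 of 34 (38.2%), so the printed examples do not stand for a rule. Eif3a, Eif3c and Eif3g held a run, outside the stretch printed for the examples, and were not among the higher members. Eif2s3x and Eif2b5 held one across the annotated start and were also not among them. Eif1ax, Eif2a, Eif2s2, Eif4a2 and Eif2b1 were higher members and held none. The annotated start need not be the start used in these cells. Promoter entries were not used for Eef1d, Eef1g, Eif1a, Eif2b3, Eif2c1 to Eif2c4, Eif3e, Eif3h, Eif3i, Eif3j, Eif4e1b, Eif4e3, Eif4ebp1, Eif4ebp3, Eif4g2, Eif6, Etf1 and Pabpc1.

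Translational efficiency (TE), the footprint RPKM of a gene over its mRNA RPKM, is given relative to the median gene of the same library, so that 1 is an average gene. The mRNAs of the TOP factors had, apart from Eef1g, a TE well below the median gene in the tet lines and one near or above it in the floxed lines. Their median TE was 0.193 and 0.194 in KH2 cells without and with Dox, and 0.157 and 0.238 in tetO-Msi1 cells without and with Dox. In C1 cells it was 1.96 and 1.93 without and with 4-OHT, and in C4 cells 1.54 and 1.29. The 4 tet libraries lay close together and far below the 4 floxed ones. The median over all members with a value differed far less, from -0.34 to -0.16 on the log2 scale in the tet libraries and from 0.22 to 0.33 in the floxed ones.

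**Figure D1:**
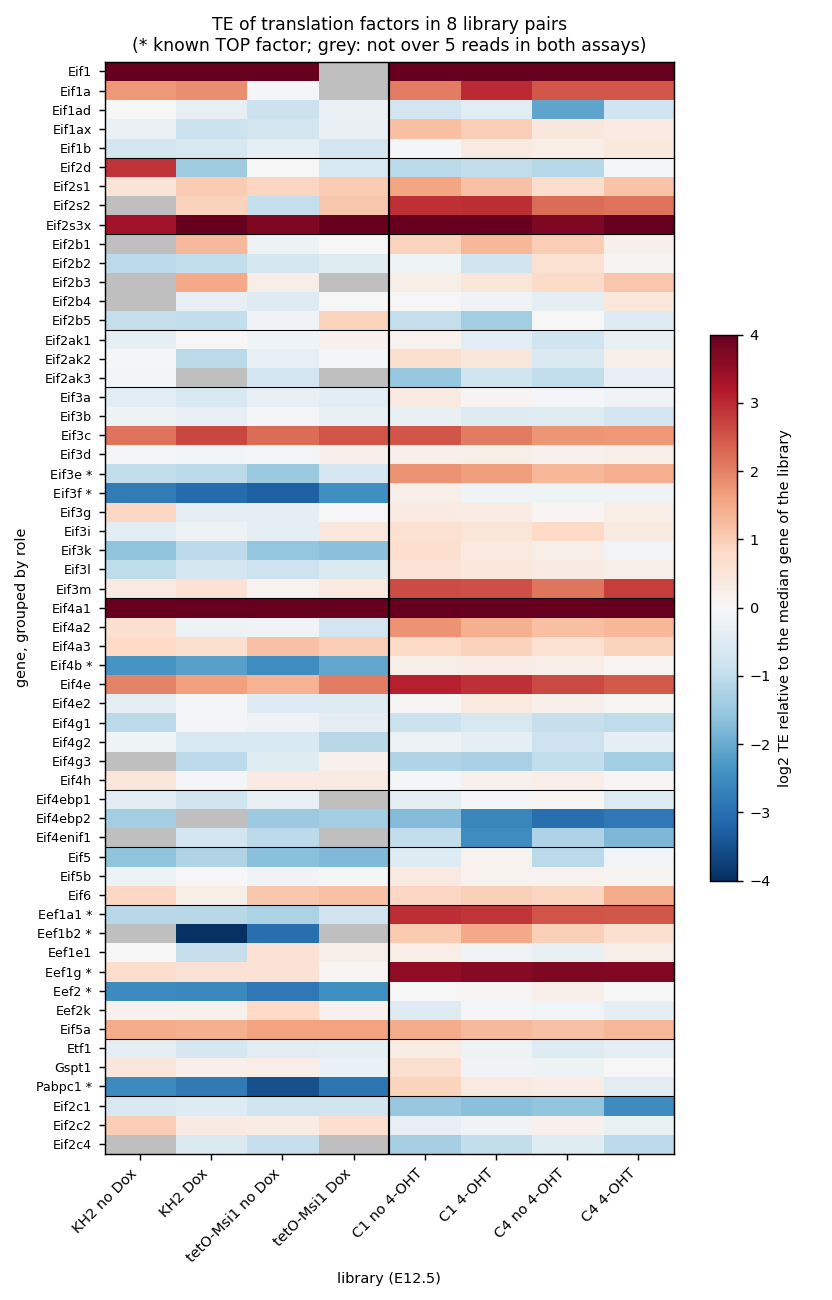
TE relative to the median gene of each library (log2, colour scale) for the members with a value in at least 6 of the 8 libraries, grouped by role (rows), in the 4 tet and 4 floxed libraries (columns); grey cells had 5 or fewer reads in an assay. The TOP factors (asterisks) pass from blue in the tet columns, or pale red for Eef1g, to near white or red in the floxed columns, while Eif3b, Eif3d and Eif5a keep about the same colour throughout.

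Eef2, which moves the ribosome along the mRNA, had a TE of 0.172 and 0.168 in KH2 and 0.139 and 0.181 in tetO-Msi1 cells, without and with Dox. In the floxed lines its TE was 0.993 and 1.03 in C1 and 1.15 and 1.00 in C4 cells, without and with 4-OHT. The groups did not overlap, and the TE of Eef2 was higher in the untreated floxed lines by a log2 of 2.82 ± 0.28 (SE, 2 against 2 lines, adjusted p = 0.000307, edgeR's quasi-likelihood test of the interaction of assay and line type with Benjamini-Hochberg adjustment). The model had no term that pairs the RNA-Seq and Ribo-Seq libraries of a line. Libraries of each assay, rather than lines, were thus its repeats. The differences below come from the same model.

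Eef1a1, the most footprinted of the eEF1 subunits, had a TE of 0.467, 0.467, 0.412 and 0.577 in the tet libraries, in the same order. In the floxed libraries it was 7.79, 7.25, 5.67 and 5.59, a log2 difference of 3.97 ± 0.28 in the untreated lines. Eef1g, a scaffold subunit of the exchange factor complex, already had a TE above the median gene in the tet libraries (1.62, 1.49, 1.49 and 1.05) and reached 11.8, 12.49, 13.3 and 13.0 in the floxed ones, a difference of 3.04 ± 0.20. Eef1b2, the exchange factor that recharges eEF1A with GTP, differed most of all members, by 4.33 ± 0.31, but it had only 5 to 34 footprints in a tet library against 186 to 1036 in a floxed one. For Eef1d, another subunit of that complex, only footprints were measured. Its footprints were 7.79, 6.95, 11.4 and 11.7 TMM CPM (reads relative to library size, not per length) in the tet libraries and 102, 105, 73.2 and 77.1 in the floxed ones.

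The TOP factors of initiation moved the same way. Eif3f, an eIF3 subunit whose start site above opens with a long pyrimidine run, had a TE of 0.143, 0.119, 0.103 and 0.181 in the tet libraries and of 1.17, 0.914, 0.885 and 0.914 in the floxed ones, a log2 difference of 3.12 ± 0.28. Eif4b, which helps the helicase eIF4A unwind the leader, went from 0.193, 0.223, 0.178 and 0.238 to 1.18, 1.23, 1.19 and 1.05, a difference of 2.71 ± 0.20. Pabpc1, the poly(A)-binding protein, went from 0.171, 0.140, 0.0882 and 0.132 to 1.85, 1.30, 1.23 and 0.727, a difference of 3.72 ± 0.34. In each of these genes the lowest floxed library was above the highest tet library. Eif3e, another eIF3 subunit, differed by 2.84 ± 0.25. Eif3h, measured by footprints alone, had 27.3, 30.4, 29.8 and 30.5 TMM CPM in the tet libraries and 80.0, 60.5, 67.5 and 86.4 in the floxed ones.

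**Figure D2:**
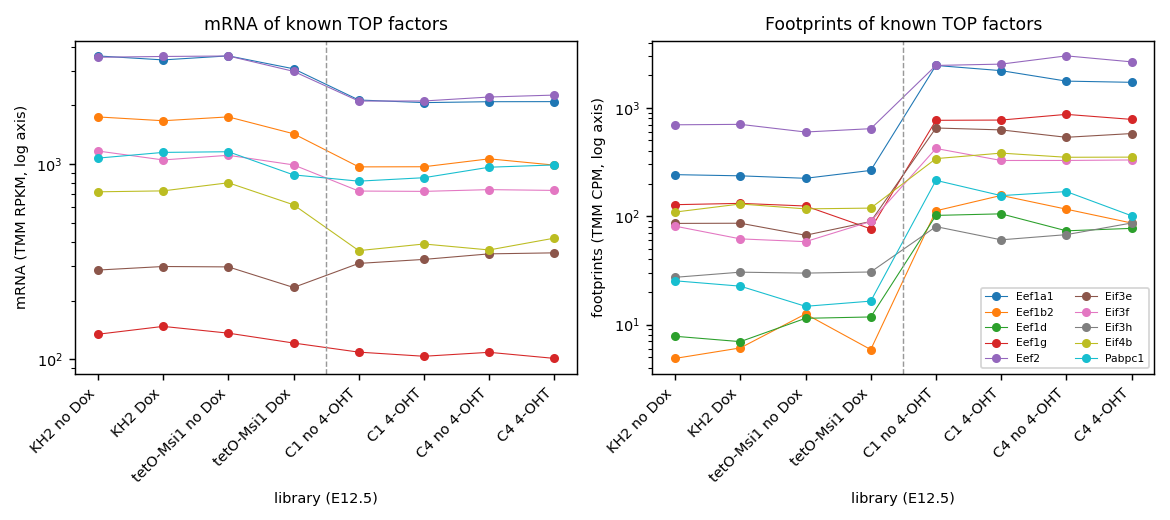
mRNA level (TMM RPKM, left) and footprints (TMM CPM, right), both on log axes, of the TOP factors (a colour for each gene; Eef1d and Eif3h in the right panel only) in 8 libraries of E12.5, with tet libraries left and floxed ones right of the dashed line. Apart from Eif3e and Pabpc1, mRNA levels lie lower right of the line, while footprints lie higher: those of Eef2 were 598 to 703 in the tet libraries and 2458 to 3013 in the floxed ones.

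In the test across all genes, the TE of 18 of 62 members was higher in the floxed lines, against 3.96% of the 10542 genes tested. It was lower for 1 member, against 4.11% of genes. The median log2 difference was 0.52 for the members and 0.01 for all genes. All 8 TOP factors tested were among the 18, with differences of 2.71 to 4.33. Their list was made with earlier results of these data known, so this count is not an independent check. Of the 47 ribosomal protein genes tested, which share the TOP tract, 40 were higher and 1 lower (median 2.77), and of 20 cytosolic tRNA synthetases, which are not TOP mRNAs, 3 were higher (median 0.02). Outside the TOP list 10 of 54 members were higher and 1 lower (median 0.43).

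By role, eIF3 had 6 higher members of 11 tested (median 1.11), and elongation 4 of 9 (median 2.82). The eIF3 subunits that were higher were Eif3e, Eif3f, Eif3m (2.20 ± 0.27), Eif3k (2.08 ± 0.24), Eif3l (1.37 ± 0.19) and Eif3i (1.11 ± 0.20). Of these, Eif3k had a TE of 0.328, 0.485, 0.346 and 0.314 in the tet libraries and 1.60, 1.31, 1.17 and 0.924 in the floxed ones. The subunits Eif3b and Eif3d did not pass the test, at -0.21 ± 0.21 and 0.26 ± 0.19. The TE of Eif3b was 0.795 to 0.948 in the tet libraries and 0.590 to 0.813 in the floxed ones, so the 2 ranges overlapped.

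The group of eIF2, the carrier of the initiator tRNA, and other tRNA delivery factors had 2 higher members of 5 tested. These were Eif2s2 (the beta subunit of eIF2, 3.77 ± 0.39) and Eif2a (a separate initiator tRNA binding protein, 2.18 ± 0.49). Both rested on few footprints in the tet lines, where Eif2s2 had 3, 25, 14 and 18 reads. Of the guanine exchange factor eIF2B, 1 of 5 was higher, Eif2b1 (1.32 ± 0.33). Of the cap-binding group, 3 of 10 were higher: Eif4b, the helicase paralog Eif4a2 (1.31 ± 0.32) and the cap-binding protein Eif4e (1.30 ± 0.32). Eif1ax, which helps the scanning ribosome find the start codon, was higher by 1.41 ± 0.32. Among release factors and poly(A)-binding proteins, Pabpc1 alone of 4 passed, and the stop codon factors Etf1 (0.40 ± 0.32) and Gspt1 (0.01 ± 0.33) did not.

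Of the 3 eIF2alpha kinases and 3 eIF4E inhibitors tested, 0 passed edgeR's test in either direction, and the smallest unadjusted p was 0.0775, for Eif2ak3. The kinase values were 0.07 ± 0.39 for Eif2ak1, 0.46 ± 0.39 for Eif2ak2 and -0.77 ± 0.39 for Eif2ak3. The inhibitor values were 0.23 ± 0.30 for Eif4ebp1, -0.60 ± 0.43 for Eif4ebp2 and 0.00 ± 1.23 for Eif4enif1. Eif2c1, an Argonaute, was the member with the lower TE (-0.79 ± 0.20, adjusted p = 0.0447). Eif2d had the most negative value, -3.05 ± 0.93, but did not pass, and 1 library set it: untreated KH2 cells had 357 Eif2d footprints, against 21 to 138 in the other tet libraries.

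**Figure D3:**
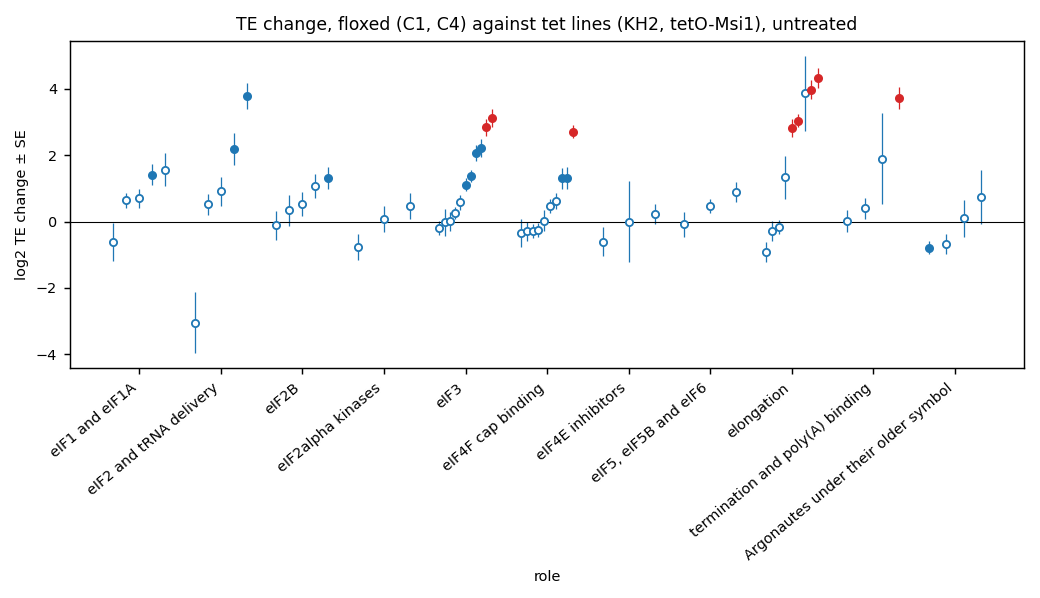
Log2 difference in TE between untreated floxed and tet lines for each member tested (point, with the SE as a bar), by role. Filled points passed an adjusted p of 0.05 and open ones did not; red marks the TOP factors, all 8 filled, between 2.71 and 4.33.

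Of the 44 members with a TE in all 8 libraries, 19 had all 4 floxed values above all 4 tet values, against 13.9% of the 6181 genes with such values. For 3 members (Eef2k, Eif2c1 and Eif2c2) all 4 floxed values were below, against 16.3% of genes. The separated members included 7 of 7 TOP factors and 12 of 37 others. The treated libraries, which the test did not use, were then fitted on their own. With the 4-OHT libraries of C1 and C4 set against the Dox libraries of KH2 and tetO-Msi1, 17 members were higher and 1 lower, with all 8 TOP factors among them (median 2.75), against 2.57% and 2.04% of the 10509 genes in that fit. These treated libraries come from the same lines and the treatments differ.

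Calls outside the TOP list changed when a line was left out. Without KH2, 8 members were past the threshold, all 8 of them TOP factors, against 0.552% of all genes in that fit. Without tetO-Msi1 also 8 were, of which 7 were TOP factors (Eef2 did not pass) and 1 was Eif2d, lower, against 0.477% of all genes. Reads shared with near-identical copies of a gene elsewhere in the genome can shift a TE, and 9 of 21 members with such a copy were higher against 9 of 41 without. All 3 TOP factors tested that have no copy, Eef1b2, Eef2 and Eif3f, were among the higher members. The part of such shared reads in the TE result was not tested. Line type cannot be told apart from experiment and library making in this comparison. The summed cell type markers were 11920 to 16070 RPKM in the tet lines of E12.5 against 14990 to 16290 in the floxed lines for stem cells, 35.0 to 55.0 against 59.2 to 76.9 for neurons and 1548 to 2339 against 1719 to 2186 for astrocytes. Single markers of a list went both ways. Hes5 was 524 to 825 in the tet lines against 21.7 to 32.6 in the floxed ones, while Nes was 127 to 248 against 468 to 487, and Gfap was 0 to 6.29 against 173 to 472, while Slc1a3 was 1069 to 1551 against 910 to 1087. The part of these cell differences in the TE result was not tested.

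Relative TE among untreated libraries was highest for Eif1 (median 205 times the median gene), Eif4a1 (60.9) and Eif2s3x (13.2). These members have 19, 3 and 2 near-identical copies, so their mRNA and footprint counts may be split unequally and the levels are uncertain. For Eif1 the mRNA level was 3.03 to 13.9 TMM RPKM, low beside that of its paralog Eif1b (221 to 624). The lowest medians were those of Eif4ebp2, an inhibitor of the cap-binding protein (0.334), Eif3f (0.356) and Eif5, which triggers GTP hydrolysis on eIF2 (0.392). These medians pool lines that differ: Eif3f was at 0.143 and 0.103 in the untreated tet lines and at 1.17 and 0.885 in the untreated floxed ones.

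Most factor mRNAs differed between floxed and tet lines, as did most genes. Of 65 members tested, 33 were higher in the untreated floxed lines (background 33% of 12211 genes) and 18 lower (background 33.3%), with 2 against 3 lines. The median log2 difference was 0.32 for the members and 0.00 for all genes. By role, 9 of 11 cap-binding factors, 4 of 5 eIF2B subunits and 3 of 4 termination and poly(A)-binding members were higher, while 7 of 8 TOP factors were lower (median -0.69) and the eighth, Eif3e, was at -0.01 ± 0.16. Apart from Eif3e, the TOP factors tested thus had less mRNA in the untreated floxed lines, and all had more footprints there. Of the ribosomal protein genes 32 of 48 were also lower at the mRNA level and 4 higher.

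The members with the largest positive differences were Eif2b3, a catalytic eIF2B subunit (2.55 ± 0.11), Eef1e1 (2.44 ± 0.15), Eif1a (2.42 ± 0.15), Eif5a2, a paralog of the elongation factor eIF5A (2.24 ± 0.19), and Eif3b (2.02 ± 0.09). Eif2b3 was at 11.2 to 21.1 TMM RPKM in the tet libraries of E12.5 and at 87.8 to 90.5 in the floxed ones, and Eif3b at 97.4 to 129 and 426 to 449. Neither gene's groups overlapped. The scaffold of the cap complex, Eif4g1, rose by 1.78 ± 0.13 and the release factor Etf1 by 1.87 ± 0.08. The largest negative differences, apart from Eif2s3y, were Eif4b (-1.19 ± 0.13), the second Eef2k ID (-1.16 ± 0.28), Eif2d (-1.05 ± 0.09) and Eif2c1 (-0.90 ± 0.08). Eef1a1 fell by 0.87 on the log2 scale and Eef1b2 by 0.84. Eef1a1 was at 3085 to 4388 TMM RPKM in the tet libraries of E12.5.

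**Figure D4:**
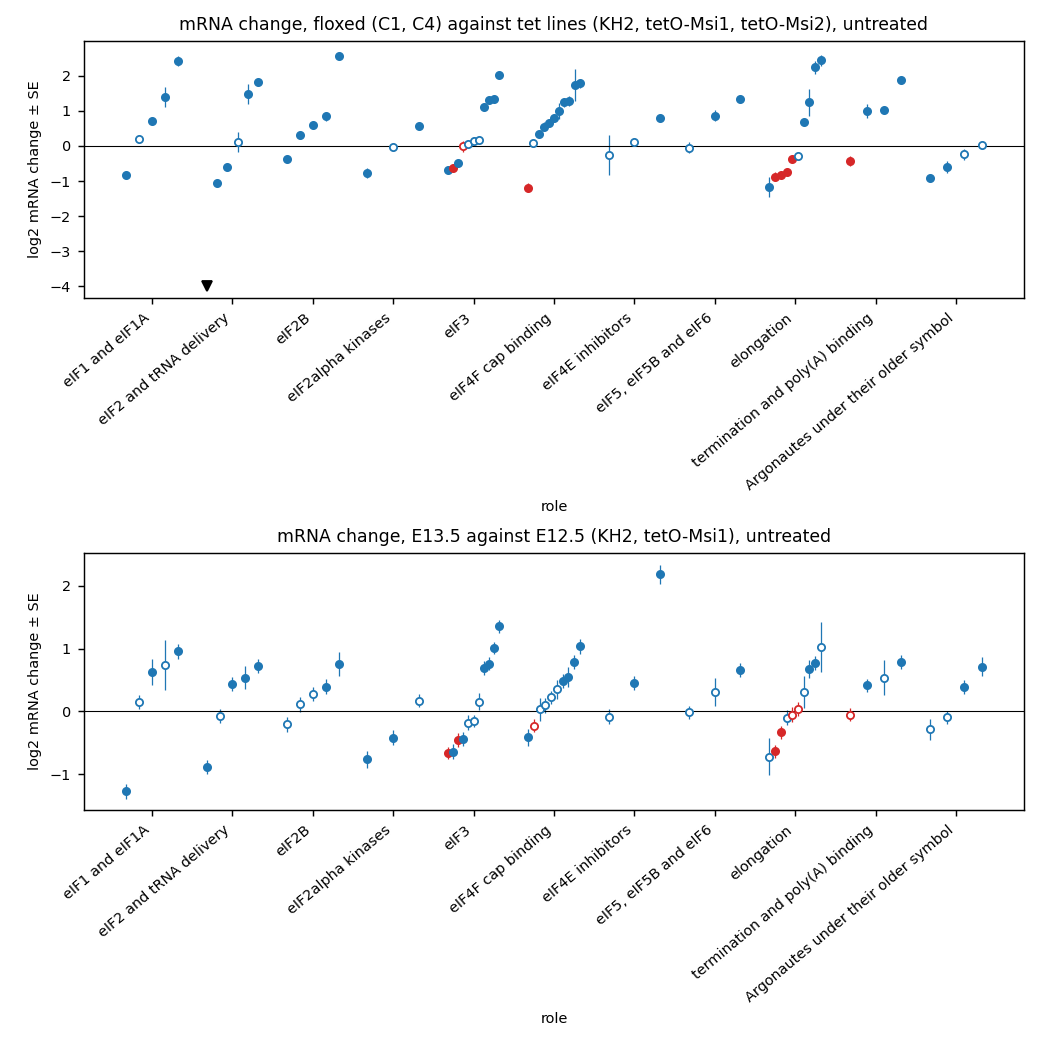
Log2 difference in mRNA of each member, by role, for floxed against tet lines (top) and for E13.5 against E12.5 (bottom; points with SE bars; filled points passed an adjusted p of 0.05, open ones did not; red marks TOP factors). The black triangle is Eif2s3y, whose fitted value lies beyond the axis because it had no reads in the floxed lines.

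Between stages, 24 of 63 members were higher in untreated E13.5 cultures (background 25.6% of 11893 genes) and 11 lower (background 25.2%), with KH2 and tetO-Msi1 as the 2 lines. The untreated E12.5 libraries are shared with the comparison of line types. Eif4ebp1, the inhibitor that holds eIF4E away from eIF4G until mTOR phosphorylates it, had the largest rise, 2.18 ± 0.15. Its mRNA was at 115 TMM RPKM in KH2 and 104 in tetO-Msi1 cells at E12.5, and at 650 and 396 at E13.5. High levels were not limited to E13.5: tetO-Msi2 cells of E12.5 had 403 without and 490 with Dox, and the floxed lines had 162 to 191. Both other inhibitors tested differed less: Eif4enif1 by 0.45 ± 0.11, past the threshold, and Eif4ebp2 by -0.09 ± 0.12, not past it.

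Higher at E13.5 were also Eif3b (1.36 ± 0.10), Eif4g1 (1.04 ± 0.12), Eif3a (1.01 ± 0.10) and Eif1ad (0.96 ± 0.12). Lower were Eif1b (-1.27 ± 0.11), Eif2a (-0.88 ± 0.11), Eif2ak2, the kinase activated by double-stranded RNA (-0.77 ± 0.14), Eif3f (-0.66 ± 0.10) and Eif3k (-0.64 ± 0.12). Of the eIF2alpha kinases, Eif2ak3, the kinase of the endoplasmic reticulum stress response, also fell (-0.42 ± 0.12), and Eif2ak1 was at 0.17 ± 0.11. Among eIF3 subunits, 4 rose and 4 fell of 11. Of the TOP factors, 4 of 8 fell (Eif3f, Eef1b2, Eif3e and Eef1a1), and the highest value in that list was 0.04 ± 0.11, for Eef1g. Stage cannot be told apart from other differences between the cultures and libraries of the 2 stages, and the labels give no library dates. Eif2s3y mRNA was at 142 TMM RPKM in untreated tetO-Msi1 cells of E12.5 and at 0 in those of E13.5. In untreated KH2 cells it was at 0.216 and 0. Cell markers also differed. In untreated KH2 and tetO-Msi1 cells the astrocyte marker Gfap was at 5.863 and 5.37 TMM RPKM at E12.5. At E13.5 it was at 60.17 and 93.35. The oligodendrocyte marker Mag went from 0.3317 and 0.06785 to 9.542 and 7.001. In the test, 2 of 4 astrocyte markers were higher at E13.5 and 1 lower. Of 2 oligodendrocyte ones 1 was higher, and of 7 stem cell markers 2 were higher and 3 lower. The part of these cell differences in the stage result was not tested.

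Eif2s3x and Eif2s3y are the X- and Y-chromosomal genes for eIF2gamma, the GTPase that holds the initiator tRNA. Eif2s3y mRNA was at 0 TMM RPKM in all 4 floxed and all 3 E13.5 libraries, at 0.216 and 0.255 in KH2 cells of E12.5, and at 132 to 158 in the E12.5 cultures of tetO-Msi1 and tetO-Msi2. tetO-Msi1 cultures of the same name thus differed between stages in this gene. Eif2s3x was at 7.11 to 13.51 in the 4 libraries with Eif2s3y, at 21.6 and 22.0 in KH2 cells of E12.5, at 12.4 to 32.2 at E13.5 and at 36.0 to 50.01 in the floxed lines. It was higher in the floxed than in the tet lines by 1.48 ± 0.29 and at E13.5 by 0.53 ± 0.18. No fold is given for Eif2s3y against libraries at 0. In C1 cells without 4-OHT 34 footprints were counted on Eif2s3y although the mRNA was at 0, and whether these were reads of Eif2s3x was not tested.

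**Figure D5:**
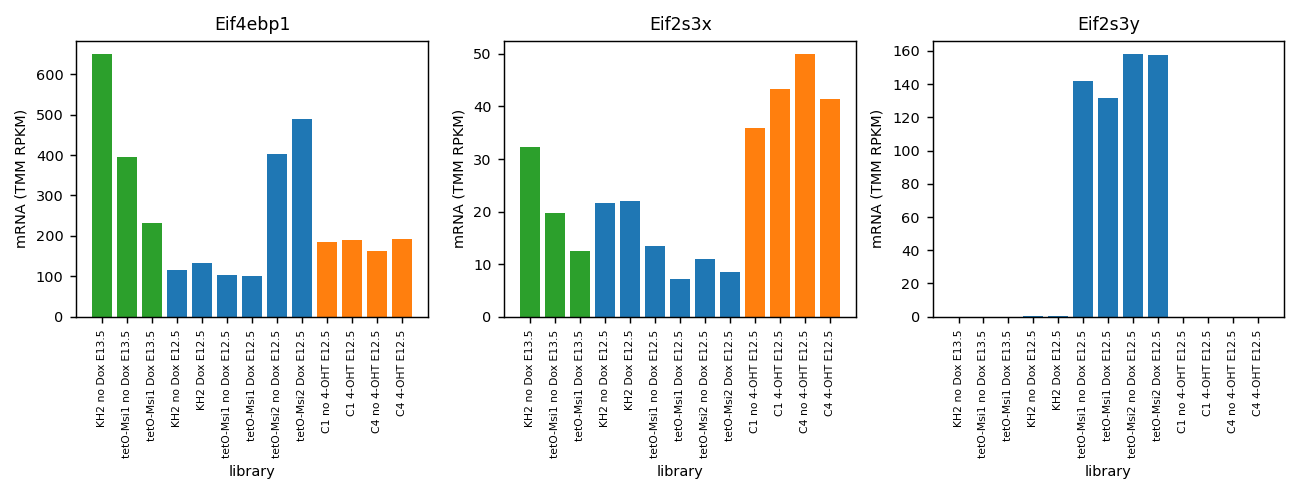
mRNA (TMM RPKM) of Eif4ebp1, Eif2s3x and Eif2s3y in each of the 13 RNA-Seq libraries, with E13.5 libraries in green, tet lines of E12.5 in blue and floxed lines in orange. Eif4ebp1 is highest at E13.5 and in tetO-Msi2 cells, and Eif2s3y is above 100 in 4 libraries and below 1 in the others.

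Induction of Msi1 moved few factor mRNAs. With Dox in tetO-Msi1 cells of both stages, 0 of 63 members rose (background 1.78% of 11938 genes) and 3 fell (background 1.82%). These were Eif2s3x (-0.75 ± 0.24, adjusted p = 0.0482), Eif2a (-0.49 ± 0.15, adjusted p = 0.0411) and Eif3e (-0.49 ± 0.15, adjusted p = 0.0468). Eif2s3x went from 13.51 to 7.11 TMM RPKM at E12.5 and from 19.8 to 12.4 at E13.5, Eif2a from 191 to 145 and from 114 to 75.0, and Eif3e from 298 to 233 and from 235 to 151. In each gene both pairs fell. None of the 3 passed with DESeq2 or without the stage as a block, and 11 members (17.5%) were at an unadjusted p under 0.05, against 14.7% of all genes. Set against KH2 as single libraries of E12.5, the mRNA change with Dox in tetO-Msi1 cells was higher by at least 1.5-fold for 2 of 62 members (background 6.85% of 11920 genes) and lower for 2 (background 6.64%).

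With Dox in all 3 tet lines of E12.5, 0 of 63 members passed edgeR's test (background 0.451% of 11969 genes). At an unadjusted p under 0.05 were 8 (12.7%), against 13.8% of all genes. DESeq2 put 1 past the threshold, against 0.576% of all genes. Eif4ebp1 was at 0.16 ± 0.09 and Eef2 at -0.06 ± 0.07. Without KH2, the line with no Msi transgene, 2 members rose and 2 fell of 62, against 2.04% and 2.34% of all genes in that fit.

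With 4-OHT in C1 and C4 cells, 0 of 64 members passed edgeR's test for mRNA (background 5.5% of 11626 genes). At an unadjusted p under 0.05 were 10 (15.6%), against 19.6% of all genes. DESeq2 put 1 past the threshold, against 4.42% of all genes. Eef2 was at 0.01 ± 0.05, Eef1a1 at -0.03 ± 0.05 and Eif4ebp1 at 0.13 ± 0.08. C1 has no Cre, so this test asks about 4-OHT in both lines. The Cre line could only be set against C1 as single libraries: the mRNA change of C4 was lower than that of C1 by at least 1.5-fold for 2 of 64 members (background 6.15% of 13035 genes) and higher for 0 (background 5.44%).

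For footprints, Dox in KH2 and tetO-Msi1 cells moved 3 of 67 members (background 0.633% of 11526 genes): Eif2s2 (2.35 ± 0.56) and Eif2s3x (1.41 ± 0.21) rose and Eif2d fell (-2.78 ± 0.27). Eif2d had 357 footprints in KH2 cells without and 21 with Dox, and 138 and 24 in tetO-Msi1 cells, before correction for depth. After correction Eif2d was at 348 and 18.25 TMM CPM in KH2 and at 50.8 and 28.2 in tetO-Msi1 cells. Eif2s3x had 87 and 605 in KH2 and 196 and 61 in tetO-Msi1, before correction for depth. After correction it was at 84.7 and 526 TMM CPM in KH2 and at 72.2 and 71.6 in tetO-Msi1 cells. The largest jumps were thus in KH2 cells, which have no Msi transgene. The standard errors of this fit, from a spread pooled over genes, do not show such differences between the lines. None of the 3 passed with DESeq2, with DESeq2's size factors in edgeR or without the line as a block. With 4-OHT, 0 of 68 members changed in footprints by edgeR's test (background 0.934% of 12426 genes), with 4 (5.88%) at an unadjusted p under 0.05, against 7.58% of all genes, and 0 with DESeq2.

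For TE, 0 of 61 members passed with Dox by edgeR's test (background 0.0791% of 10111 genes), with 7 (11.5%) at an unadjusted p under 0.05, against 4.32% of all genes, and 0 with DESeq2. With 4-OHT it was 0 of 62 (background 0% of 10490 genes), with 5 (8.06%) at an unadjusted p under 0.05, against 8.89% of all genes, and 0 with DESeq2. Eef2 was at 0.18 ± 0.26 with Dox and at -0.06 ± 0.22 with 4-OHT, and Eef1a1 at 0.25 ± 0.22 and -0.05 ± 0.12. The members nearest to a change with 4-OHT were Eif5 (0.81 ± 0.17) and Pabpc1 (-0.61 ± 0.14), each with an adjusted p of 0.546.

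Single pairs of libraries were read with a limit of 1.5-fold relative to the median gene and a 95% counting interval, with no replicate and no test. In mRNA, the KH2 pair had 1 of 63 members past the limit upward (an Eef2k ID, background 2.69%) and 0 downward (background 3.34%). The tetO-Msi1 pair of E12.5 had 0 upward (background 6.02%) and 2 downward (background 4.37%), Eif2s3x (-0.91) and Pabpc4 (-0.60), and the tetO-Msi2 pair had 1 upward (Eif1, 1.22, background 4.29%) and 0 downward (background 5.07%). At E13.5 the tetO-Msi1 pair had 2 of 64 upward (background 8.47%), Eef1a2 (1.24) and Eif5a2 (0.64), and 7 downward (background 7.53%). The largest of these were Eif1 (-1.42), Eif2s2 (-0.93) and Eif4ebp1 (-0.77). The C1 pair had 0 of 64 in either direction (background 3.45% up and 4.2% down), and the C4 pair had 0 upward (background 5.67%) and 2 downward (background 7.44%), Eif4e3 (-1.03) and the eEF1A paralog Eef1a2 (-0.87).

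In TE, the KH2 pair had 3 of 47 members upward (background 10.7%) and 8 downward (background 12.7%), led by Eif2s3x (2.58), Eif4g1 (1.04) and Eif1 (0.73) upward and Eif2d (-4.30), Eif3g (-1.20) and Eif2ak2 (-0.99) downward. The tetO-Msi1 pair had 8 of 50 upward (background 12%) and 4 downward (background 10.2%). Its largest values were Eif2s2 (2.02), Eif2b5 (1.00) and Eif2s3x (0.93) upward and Eif2s3y (-1.10), Eif2d (-0.66) and Eif4a2 (-0.64) downward. The TE of Eif2s3x was past the limit upward in both lines, but by 1.65 less in tetO-Msi1 than in KH2 cells (log2, interval -2.46 to -0.83). Its footprints relative to the median gene were at 2.61 in KH2 and 0.03 in tetO-Msi1 cells, and its mRNA in the latter was at -0.91. The TE of Eif2d was past the limit downward in both lines, by 3.64 more in KH2.

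The C1 pair had 5 of 62 upward (background 14.8%) and 6 downward (background 10.4%), with Pabpc4 (1.45), Eif1a (0.97) and Eif2c3 (0.95) upward and Eif4enif1 (-1.47), Eef1a2 (-0.99) and Eif4ebp2 (-0.86) downward. The C4 pair had 9 of 61 upward (background 15.4%) and 4 downward (background 13.1%), with Eif1ad (1.32), Eif2d (1.11) and Eif5 (1.00) upward and Eif2c1 (-0.93), Eif2b1 (-0.78) and Pabpc1 (-0.75) downward. Eif5 was past the limit in both lines, at 0.70 in C1, and so with and without Cre. Pabpc1 was at -0.49 in C1, within the limit. The difference of the TE changes, C4 less C1, was past 1.5-fold upward for 15 of 61 members (background 19.2% of 8255 genes) and downward for 9 (background 18.4%). For tetO-Msi1 less KH2 it was upward for 13 of 44 (background 17.1% of 6442 genes) and downward for 4 (background 18.1%).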

How the data were processed

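RNA-Seq was made from poly(A)+ RNA with paired ends, and Ribo-Seq from monosome-protected fragments with single ends. For each library the authors deposited a read count per Ensembl gene (over coding exons for Ribo-Seq), not normalized, and an RPKM per gene. The submitters' processing notes name TopHat, Bowtie and the mouse build mm9, with no versions, and the counter is not given in the sources used here. All samples were grouped by their labels. The members and gene lists were chosen with earlier results of these data known.

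Counts were tested with edgeR 4.0.16 (R 4.3.3), by a quasi-likelihood test with TMM scaling on genes that reached 1 CPM in 2 or more libraries, with Benjamini-Hochberg adjustment over all genes tested and a threshold of 0.05. Line or stage was a block where treatments or stages were compared. TE was tested as the interaction of assay with treatment or line type in a model over both assays. It had no term pairing the RNA-Seq and Ribo-Seq libraries of a culture. The procedure was tested on simulated data. Counts of the technical replicates were summed and their RPKM averaged. mRNA levels are RPKM rescaled by TMM factors, footprint levels TMM CPM, and TE the ratio of the deposited RPKM values, for genes with more than 5 reads, relative to the library's median gene. Single pairs of libraries were read on the log2 ratio of RPKM with nothing added, a 1.5-fold limit and 95% intervals that cover counting error only. Reads are not unique molecules.

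Named were the TOP factors, the eIF2alpha kinases, the eIF4E inhibitors, Eif2s3x and Eif2s3y, up to 5 members past the threshold in each direction of a test, up to 3 in each direction of a pair, and the members with the 3 highest and 3 lowest TE and the 3 highest mRNA levels, with others where their values were of use. Near-identical copies of a coding sequence were counted with minimap2 2.31-r1302 at 90% coverage and 90% identity. Alternatives were DESeq2 1.42.0, its size factors, no filter, no block, lines left out, and other limits for pairs. Columns of per-sample values left unused numbered 0. The log2 differences printed with ± carry the standard error of the fit.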

Additional observations from a re-analysis of the deposited data

Results flagged for a closer look

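For 4 results, every library pair of one culture went one way and that of another the opposite way under the same contrast, with counting intervals that did not include 0, and the differences were not tested, since each rests on single libraries. Etf1 mRNA, the release factor, changed with Dox by 0.39 (log2, 95% counting interval 0.285 to 0.489) in E12.5 tetO-Msi1 cells and by -0.59 (-0.634 to -0.549) at E13.5, a difference of 0.98. Eif2b1 footprints changed with 4-OHT by 0.52 (0.185 to 0.864) in C1 and by -0.78 (-1.38 to -0.186) in C4 cells, a difference of 1.31. The TE of Eif2b1 changed by 0.48 (0.139 to 0.831) in C1 and by -0.78 (-1.38 to -0.179) in C4, a difference of 1.27, and shares its footprints with the value before. The TE of Eif2s3x changed by -0.81 (-0.970 to -0.658) in C1 and by 0.44 (0.243 to 0.628) in C4, a difference of -1.25.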

How the results depend on the processing

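Of 67 alternatives for the summary counts and medians, 47 left the value within 1.5 times and 20 moved it. The TE difference between floxed and tet lines (19 members past the threshold) gave 20 members with DESeq2 and 8 to 25 with a line left out (8 without KH2, 8 without tetO-Msi1, 25 without C4), and 10 among members without a near-identical copy. The last alternative, the treated libraries and the removal of genes over 1% of footprints were chosen after seeing the data. With Dox in tetO-Msi1 cells of both stages (3 members, background 1.78% of genes higher and 1.82% lower) DESeq2 gave 0 (0.871% of genes). The fit with no replicate block gave 0 (0% of genes), and leaving out a technical replicate 1 to 2 (3.51% to 3.58%). With Dox in 3 lines (0 members, background 0.451% of genes) DESeq2 gave 1 (0.576% of genes) and no filter 3 (2.68%). A line left out gave 0 to 4 (0.203% to 4.38% of genes), with 4 and 4.38% without KH2. For 4-OHT mRNA (0 members, background 5.5% of genes) DESeq2 and no filter each gave 1 (4.42% and 7.64% of genes). For footprints with Dox (3 members, background 0.633%) DESeq2, its size factors and no replicate block each gave 0 (0.0607%, 0.139% and 0%). For TE with Dox (0 members, background 0.0791%) no filter gave 2 (0.201%). E13.5 against E12.5 gave 35 members with a replicate block (25.6% of genes higher and 25.2% lower). With no block it gave 31 (21.3% and 21.1%). In single pairs, mRNA calls went from 15 to 4 at 2-fold. TE calls went from 47 to 98 when not centred, 30 above 20 reads and 3 at 3-fold with an mRNA change under 1.5-fold. At these other settings for pairs the share over all genes was not computed. The median log2 TE of members over untreated libraries went from 0.0018 to -2.03 when not centred. The uncentred C1 pair, whose median gene shifted by -1.46, reversed Pabpc4 (-0.0020), Eif1a (-0.49) and Eif2c3 (-0.50). Causes of these moves were not tested, apart from the centring. Single members kept their direction and side in 470 of their alternatives, lost the call in 65, moved in 6 and reversed in those 3. Depth limits members with few footprints, such as Eef1b2, with 5 to 34 in the tet libraries.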

Other observations

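Outside the factors, the cytosolic tRNA synthetases, which charge tRNAs with amino acids, differed between stages: 18 of 20 were higher at E13.5 and 1 lower (background 25.6% higher and 25.2% lower of 11893 genes), with a median log2 difference of 1.56. In the floxed against the tet lines, 10 of 20 were higher and 1 lower at the mRNA level (background 33% and 33.3%), with a median of 0.59. The ribosomal protein genes had a median TE, relative to the median gene, of 0.69 to 0.74 on the log2 scale in the tet libraries and of 2.99 to 3.30 in the floxed ones, so unlike the TOP factors they lay above the median gene in both.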
